A study of Mus musculus with 16 samples.

Results

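Chromaffin cells of the adrenal medulla and sympathetic neurons both come from the neural crest, and both make catecholamines. Most of the 9 genes described here are known for roles in those cells. They are the enzyme genes Th, Ddc and Dbh, the transcription factor genes Phox2a, Hand2 and Gata3, and the granin genes Chga and Chgb. The neuropeptide gene Crh was listed with them and is not taken here as a marker of those cells. All 9 were followed across 16 Affymetrix arrays of mouse embryonic gonads, and all probe sets annotated to 1 of these symbols were taken. This gave 14 probe sets, of which 12 passed the filter on low values, and all 9 genes were among the 12336 genes tested.

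The 8 groups of 2 arrays were Wnt4 knock-out (KO) and wild-type (WT) testes at embryonic day 14.5 (E14.5), KO and WT ovaries at E14.5, KO and WT testes at E12.5, and KO and WT ovaries at E12.5. Embryos were staged by morphology and gonads were kept frozen until PCR had given the genotype. The Wnt4 allele, the strain, and whether an array held 1 embryo or a pool are not stated in the labels, so p-values measure the spread between these arrays only. The titles of male samples name an ovary and their source names a testis, and they were taken as testis.

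Catecholamine synthesis runs in steps. Tyrosine hydroxylase (Th) makes L-DOPA from tyrosine and is rate-limiting, aromatic amino acid decarboxylase (Ddc) makes dopamine, and dopamine beta-hydroxylase (Dbh) makes noradrenaline inside vesicles. Phox2a, Hand2 and Gata3 are transcription factors that take part in the differentiation of sympathoadrenal precursors. Chromogranin A (Chga) and secretogranin I, also called chromogranin B (Chgb), are acidic proteins of the dense-core granules in which catecholamines are stored. Crh encodes corticotropin-releasing hormone, which acts on the pituitary and is also made by neurons outside the hypothalamus. Hand2, Gata3 and Ddc are also known from other embryonic tissues, so none of the 3 marks sympathoadrenal cells alone.

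The RefSeq promoter sequences used here (GRCm38.p6) covered 8 of the 9 genes, all but Crh. The 250 bases upstream of each start were searched on both strands. The cyclic AMP response element, TGACGTCA, was found in 2 of the 8 genes, Th and Chgb, and in 1.55% of 32851 mouse promoter windows of the same length. The E-box CANNTG was present in 5 of the 8 and in 66.2% of all windows, the homeodomain core TAAT in 5 and in 54.9%, and the letters GATAA in 2 and in 22.6%. CANNTG can overlap the other motifs and no motif was counted as a binding site. The windows of Th, Chgb and Dbh are printed because Th and Dbh passed the test of the KO by sex interaction below and Chgb had the widest range of intensity. Each runs 5′ to 3′ on the strand of its gene, and capitals mark TGACGTCA.
Th, chr7:142899996-142900245, minus strand: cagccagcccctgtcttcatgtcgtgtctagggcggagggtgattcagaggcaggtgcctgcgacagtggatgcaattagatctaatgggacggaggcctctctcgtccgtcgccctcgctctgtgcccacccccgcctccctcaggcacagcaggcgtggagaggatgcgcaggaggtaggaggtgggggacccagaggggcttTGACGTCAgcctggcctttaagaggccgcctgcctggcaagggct
Chgb, chr2:132781392-132781641, plus strand: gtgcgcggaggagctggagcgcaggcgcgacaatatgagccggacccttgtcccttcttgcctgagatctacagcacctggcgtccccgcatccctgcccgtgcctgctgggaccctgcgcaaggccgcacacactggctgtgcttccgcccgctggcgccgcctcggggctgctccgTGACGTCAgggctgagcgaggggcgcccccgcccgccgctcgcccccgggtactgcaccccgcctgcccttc
Dbh, chr2:27165257-27165506, plus strand: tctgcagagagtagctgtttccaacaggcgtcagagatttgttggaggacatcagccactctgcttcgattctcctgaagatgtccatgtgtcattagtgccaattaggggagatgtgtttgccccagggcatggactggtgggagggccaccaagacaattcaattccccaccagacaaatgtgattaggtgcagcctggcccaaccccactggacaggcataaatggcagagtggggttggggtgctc
The element lies 45 to 38 bases before the Th start and 72 to 65 bases before the Chgb start. The Dbh window holds none with these letters.

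Mean intensity lay between 272.4 and 287.6 per array and the array median between 9.28 and 10.4. Wnt4 itself had 839 and 520.2 in KO ovaries at E12.5 with 844 and 1822 in WT ovaries, and 351 and 302 in KO ovaries at E14.5, with 1138 and 1151 in WT ovaries. At E12.5 Wnt4 had 413 and 231 in KO testes with 502 and 473 in WT testes. At E14.5 it had 277 and 371 in KO testes with 753 and 512 in WT testes. The deleted part of Wnt4 is not stated, so these values do not check the genotype labels. The ratio of 3′ to 5′ actin and Gapdh control probe sets, which is high in partly degraded RNA, was 2.27 in KO ovary E12.5 replicate 1, 1.76 in WT ovary E12.5 replicate 2 and 1.76 in KO testis E12.5 replicate 1. It was at most 1.36 in the other arrays. The 2 WT testis arrays at E12.5 were almost alike, with an SD of their log2 difference over genes of 0.142 against 0.335 to 0.587 in the other groups, so they may be 1 sample. Some arrays held signal of the other sex. Eif2s3y, a Y-linked gene, read 856 to 1350 in testis arrays. In ovaries at E12.5 it read 4.87 and 231 in KO and 245 and 117 in WT, and at E14.5 3.7 and 3.67 in KO and 5.05 and 239 in WT. Xist, the transcript of the inactive X chromosome, read 788 in KO and 1087 in WT testis E14.5 replicate 2 and at most 8.78 in the other testis arrays.

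At E12.5, 8 of the 9 genes were above the array median on all 8 arrays, and Th on 6 of the 8, the exceptions being both KO testis arrays. At E14.5 Ddc, Hand2 and Gata3 were above the array median on all 8 arrays, and the other 6 genes were on 0 to 3. At E12.5 the highest array was KO ovary replicate 1 for 8 of the 9 genes, and KO ovary replicate 2 for Crh. The lowest E12.5 array was KO testis replicate 2 for 8 of the 9 genes, and WT ovary replicate 2 for Crh. Between these extremes Dbh differed 17.7-fold and Phox2a 30.2-fold. In bulk gonad RNA, fewer cells of a type and less RNA per cell cannot be told apart.

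**Figure D1:**
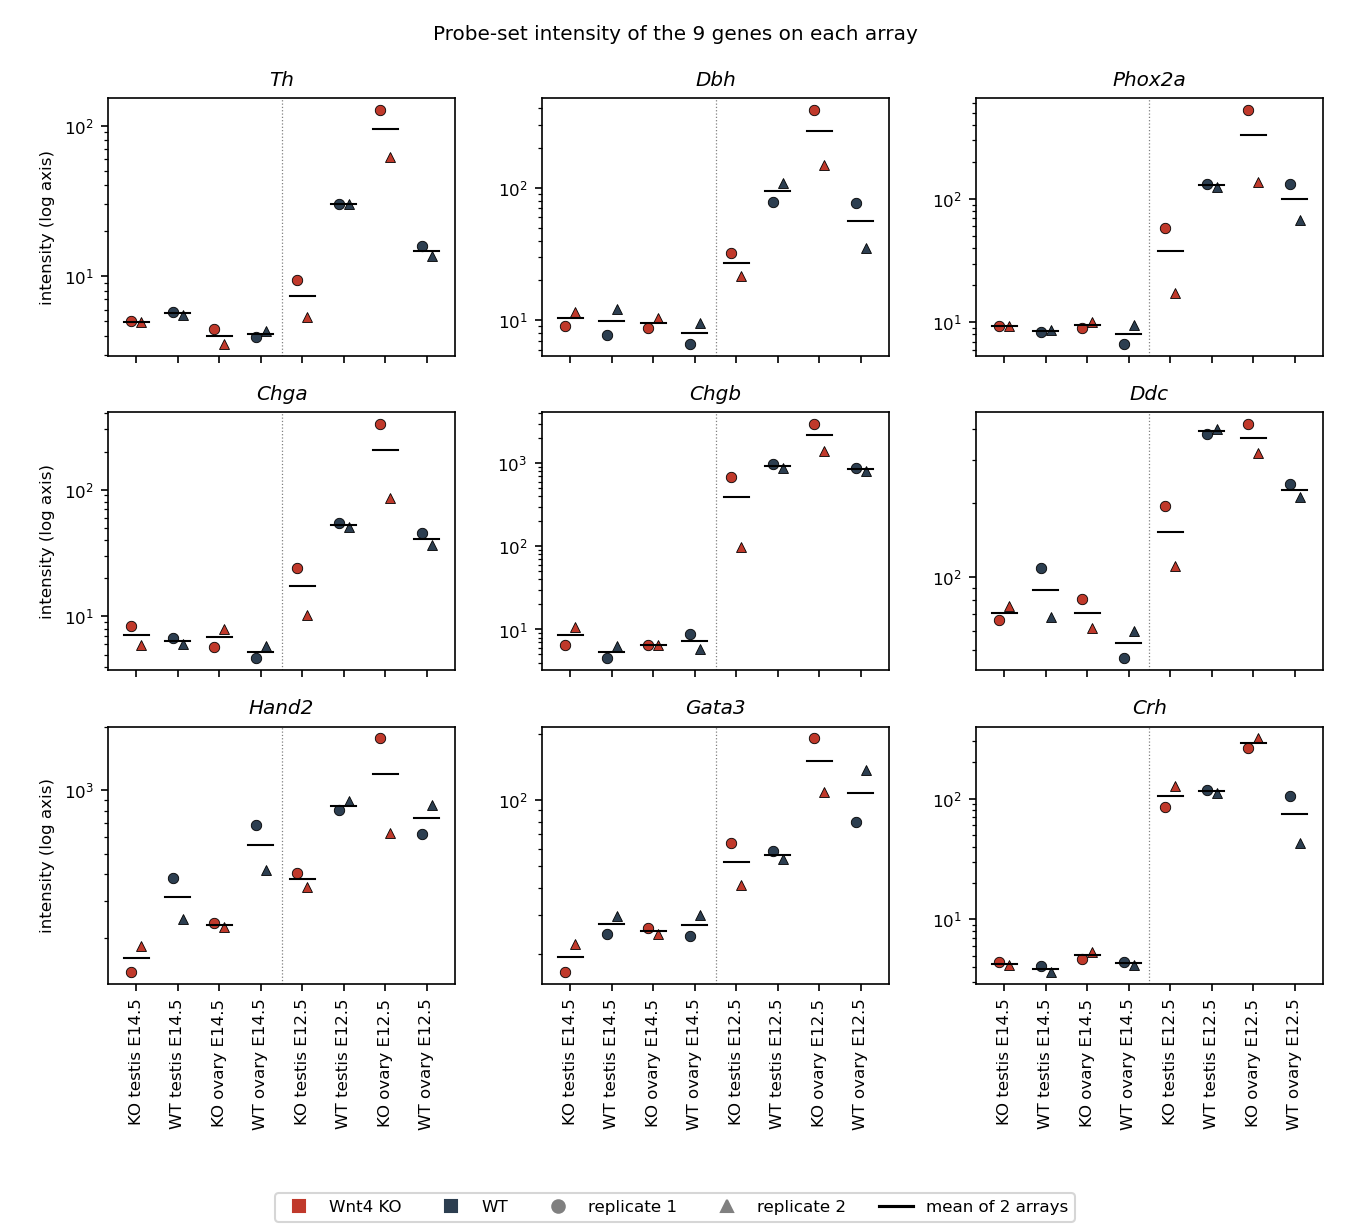
Intensity of the chosen probe set of each of the 9 genes on every array, on a log axis, by group (KO testis, WT testis, KO ovary and WT ovary at E14.5, then the same at E12.5). Circles are replicate 1, triangles replicate 2 and lines the means of 2 arrays; Crh and Chgb are at most 10.6 on every E14.5 array and at least 42.6 on every E12.5 array.

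The first comparison asked how these genes stood in KO against WT ovaries at E12.5. Th and Crh rose, and the other 7 genes did not pass the test. In the chosen probe sets all 9 log2 changes were positive, with a median of 1.48 against 0.03 over all genes. Over all genes tested, 0.186% were called higher in this comparison. In 7 of the 9 genes both KO ovary arrays were above both WT ovary arrays, the exceptions being Hand2 and Gata3, against 15.3% of all genes. The 9 genes were chosen with earlier results of these data known. Here and below, their counts beside those of all genes are therefore a description and no independent support.

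Among the enzymes, Th read 127 and 62.1 in KO ovaries and 15.8 and 13.5 in WT ovaries at E12.5. Both KO arrays were clear of both WT arrays, and both were above every other array of the study. Th rose 4.99-fold (log2 change 2.32, SE 0.259, limma adjusted p = 0.00168, 95% confidence interval 1.76 to 2.88). Dbh read 385 and 149 in KO ovaries and 77 and 35.3 in WT ovaries. The groups did not overlap, and the log2 change of 2.11 (SE 0.417) had an adjusted p of 0.0552 in limma. Dbh has 3 probe sets that disagree in size. The second read 338 and 90.2 in KO ovaries against 99.2 and 58.7 in WT ovaries, and the third 47.8 and 16.9 against 17.2 and 20.7, so both overlap between the genotypes. Ddc read 420 and 319 in KO ovaries and 239 and 212 in WT ovaries, a small gap beside that of Th (log2 change 0.69, SE 0.307, limma adjusted p = 0.601).

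The granins were high in KO ovary replicate 1. Chga read 329 and 85.3 in KO ovaries and 45.4 and 36.4 in WT ovaries (log2 change 1.95, SE 0.457, limma adjusted p = 0.106). Chgb, the member with the highest intensity, read 2957 and 1394 in KO ovaries and 877 and 818 in WT ovaries. Its log2 change of 1.26 (SE 0.625) had an adjusted p of 0.658 in limma. Neither granin overlapped between the genotypes, and neither passed the test.

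Of the transcription factors, Phox2a read 526 and 138 in KO ovaries and 132 and 67.1 in WT ovaries, so KO replicate 2 lay only just above WT replicate 1 (log2 change 1.48, limma adjusted p = 0.459). Hand2 read 1763 and 631 in KO ovaries and 623 and 851 in WT ovaries, and Gata3 read 191 and 109 in KO ovaries and 79.3 and 137 in WT ovaries. Both overlapped between the genotypes, with log2 changes of 0.53 and 0.46. A second kept Hand2 probe set went the other way. It read 10.95 to 11.43 in KO ovaries and 15.02 to 16.39 in WT ovaries, without overlap (log2 change -0.37). The positive sign of Hand2 thus depends on the probe set chosen. Crh read 265 and 316 in KO ovaries and 105 and 42.6 in WT ovaries, without overlap, and rose 4.12-fold (log2 change 2.04, SE 0.322, limma adjusted p = 0.026, 95% confidence interval 1.35 to 2.74).

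The 2 KO ovary arrays differed in how far they stood from WT. The median log2 difference of the 9 genes from the WT mean was 1.92 in KO replicate 1, the array with a 3′/5′ ratio of 2.27, and 0.72 in KO replicate 2, where 8 of the 9 were above the WT mean. Without KO replicate 1 the change of Th was 3.55-fold (adjusted p = 0.00297), and that of Crh did not pass (adjusted p = 0.0672). Without KO replicate 2, 5 genes passed, Th, Dbh, Phox2a, Chga and Crh, Th by 7.02-fold, and 1.09% of all genes were called higher. With the 3 arrays of high 3′/5′ ratio left out, which leaves 1 array of each genotype, Th was 3.34-fold (adjusted p = 0.00955) and Crh 2.93-fold higher in KO (adjusted p = 0.0249). The call of Crh was also lost without WT replicate 2 (adjusted p = 0.0685), and with the WT testis arrays averaged as 1 sample (adjusted p = 0.0545), where Th kept its call (adjusted p = 0.00464).

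**Figure D2:**
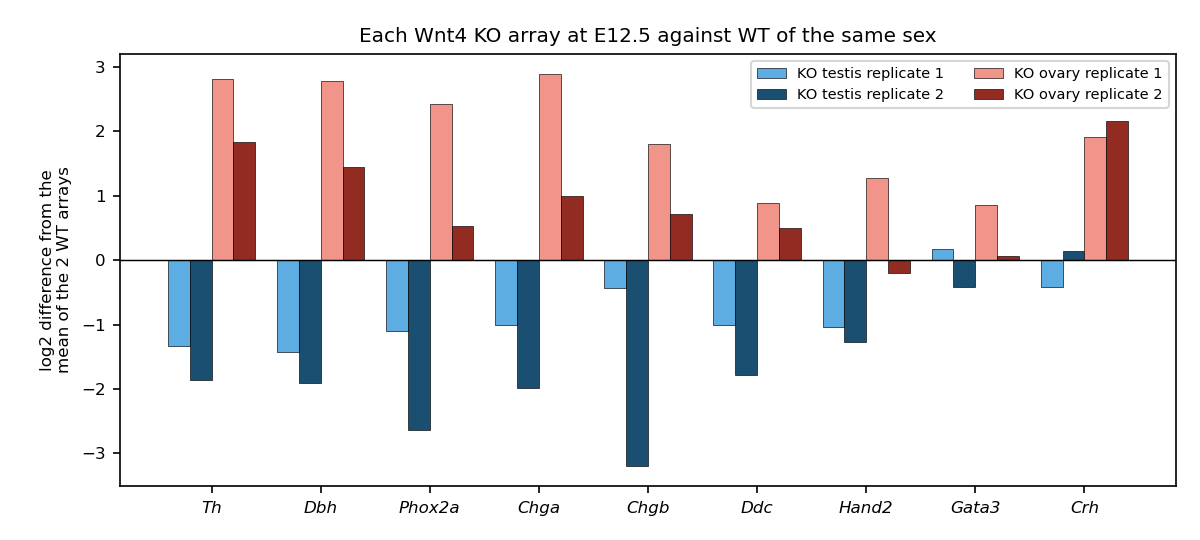
Log2 difference of each KO array at E12.5 from the mean of the 2 WT arrays of the same sex, for the 9 genes; blue bars are KO testis replicates and red bars KO ovary replicates. KO ovary bars are above 0 except Hand2 in replicate 2, and KO testis bars are below 0 except Gata3 in replicate 1 and Crh in replicate 2.

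The second comparison put the same question to testes at E12.5. None of the 9 genes passed limma (0 called, 7 at an unadjusted p under 0.05, against 1365 of all 12336 genes), and 0.0405% of all genes were called. In the chosen probe sets all 9 log2 changes were negative, with a median of -1.5 against 0.10 over all genes. In 7 of the 9 genes both KO testis arrays were below both WT testis arrays, the exceptions being Gata3 and Crh, against 16.1% of all genes.

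Th read 9.45 and 5.33 in KO testes and 30.1 and 30.0 in WT testes at E12.5, so KO replicate 2 was as low as arrays of E14.5. The log2 change was -1.60 (SE 0.259, limma adjusted p = 0.0612). Dbh read 32.1 and 21.8 in KO testes and 78.3 and 109 in WT testes (log2 change -1.66), and its second probe set read 55.9 and 11.8 against 110 and 172. Ddc read 194 and 111 in KO testes and 384 and 401 in WT testes (log2 change -1.40, SE 0.307, limma adjusted p = 0.101). In their chosen probe sets the 3 enzymes were thus below WT on every KO testis array, without passing the test. The third Dbh set read 14 and 8.69 in KO testes against 9.56 and 9.34 in WT testes, which overlap.

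Chgb read 689 and 98.2 in KO testes and 993 and 883 in WT testes, the widest gap between replicates of any of the 9 genes. Chga read 24.1 and 10.3 in KO testes and 54.6 and 50.7 in WT testes. Phox2a read 57.8 and 17.4 in KO testes and 134 and 125 in WT testes. In all 3, KO replicate 2 was the lower of the 2 KO arrays. Hand2 read 408 and 349 in KO testes and 806 and 886 in WT testes (log2 change -1.15, limma adjusted p = 0.291). Crh and Gata3 did not share the gap. Crh read 85 and 127 in KO testes and 119 and 112 in WT testes (95% confidence interval of the log2 change -0.84 to 0.55). Gata3 read 63.9 and 41.3 in KO testes and 58.5 and 53.9 in WT testes (interval -0.82 to 0.59).

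The median log2 difference of the 9 genes from the WT mean was -1.01 in KO testis replicate 1, which had a 3′/5′ ratio of 1.76, and -1.87 in replicate 2, whose ratio was 1.29. With the 3 arrays of high 3′/5′ ratio left out, 6 genes were called lower in KO testis, Th, Dbh, Phox2a, Chga, Chgb and Ddc, as were 0.689% of all genes. In that setting 1 KO array remained and its spread was taken from the other groups. Without KO replicate 1 alone, 2 genes were called lower, Th and Chgb, as were 0.138% of all genes. With the 2 almost alike WT testis arrays averaged as 1 sample, 0 of 9 were called, as with both.

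**Figure D3:**
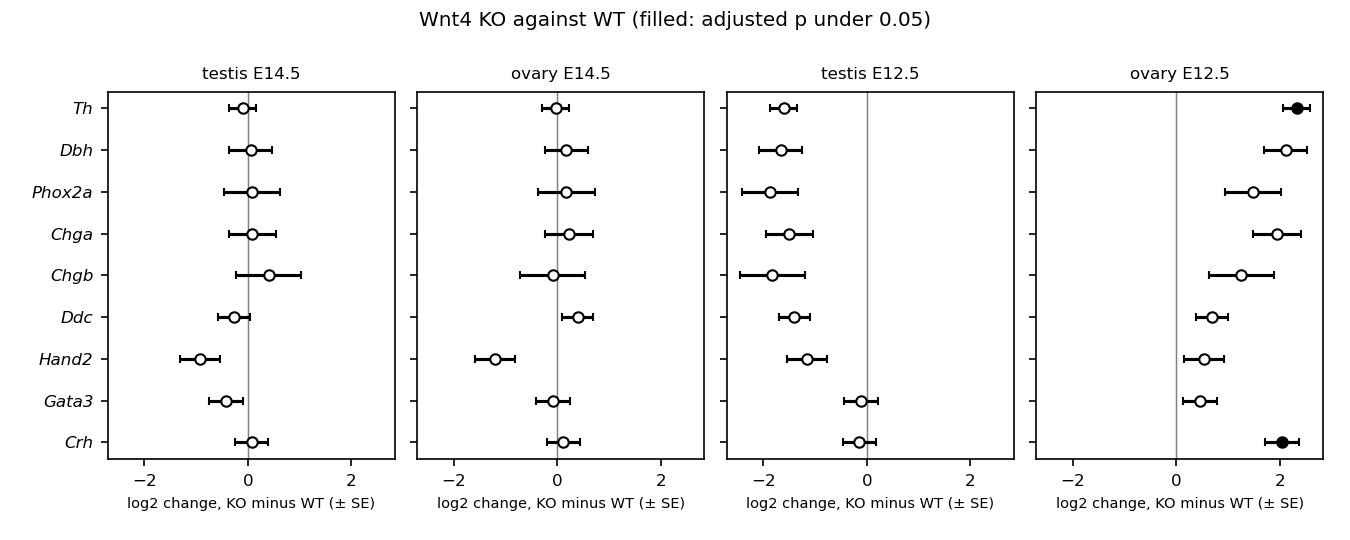
Log2 change (KO minus WT, with its SE from limma over all 16 arrays) of the 9 genes in testis E14.5, ovary E14.5, testis E12.5 and ovary E12.5; filled points have an adjusted p under 0.05. Points are below 0 in testis E12.5 and above 0 in ovary E12.5, where Th (2.32) and Crh (2.04) are filled.

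Whether the genotype difference itself differed between the sexes at E12.5 was tested as an interaction, the KO minus WT change in testis minus that in ovary. Th and Dbh passed, in the negative direction. Th had an interaction of -3.92 on the log2 scale (SE 0.367, limma adjusted p = 0.000814) and Dbh of -3.78 (SE 0.59, limma adjusted p = 0.0271), and 0.0892% of all genes were called in this direction. All 9 values were negative, with a median of -3.08 against 0.08 over all genes. The next smallest was Chga at -3.44 (limma adjusted p = 0.0754), and Gata3 had -0.57 (interval -1.57 to 0.42). The negative sign was not particular to the 9 genes. In the lists read below, all 10 pan-neuronal genes (median -1.98) and all 10 striated muscle genes (median -1.89) were also negative, with 1 called in each. All 9 gonad identity genes (median 0.94) and all 5 mesonephros genes (median 0.44) were positive, with 0 called. Dbh lost its call in 9 of 22 other settings, with the WT testis arrays averaged (adjusted p = 0.155), no intensity trend (adjusted p = 0.0577), each probe set tested (adjusted p = 0.0856), only the 8 arrays of the contrast (adjusted p = 0.357), the mean of its probe sets (interaction -2.50, adjusted p = 0.223), and without WT ovary replicate 2 (adjusted p = 0.127), either WT testis array (adjusted p = 0.175 and 0.195) or KO testis replicate 2 (adjusted p = 0.175). The value of 0.0856 is that of the chosen Dbh probe set. In the same limma fit the second Dbh set had an interaction of -3.36 (adjusted p = 0.467). The third had -0.35 (unadjusted p = 0.444), so the call of Dbh rests on the chosen set. Th lost its call only in the fit limited to the 8 arrays of the contrast (adjusted p = 0.202), of 21 other settings in which it was tested.

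At E14.5 the KO and WT gonads had no called difference in these genes. In KO against WT ovaries 0 of 9 passed limma, 1 (Hand2) had an unadjusted p under 0.05 as had 5.74% of all genes, and 0.543% of all genes were called. In KO against WT testes 0 of 9 passed, again 1 (Hand2) had an unadjusted p under 0.05 as had 1.48% of all genes, and 0.00811% of all genes were called. Hand2 read 235 and 226 in KO ovaries and 682 and 421 in WT ovaries (log2 change -1.21, SE 0.39, limma adjusted p = 0.359). In testes Hand2 read 138 and 184 in KO and 383 and 245 in WT (log2 change -0.93, 95% confidence interval -1.77 to -0.09). Both KO arrays were below both WT arrays for 1 member in ovaries, Hand2, against 18.8% of all genes, and for 3 members in testes, Th, Hand2 and Gata3, against 9.54% of all genes. Th in testes was below the array medians at E14.5.

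Th was at 4.42 and 3.53 in KO ovaries and 3.92 and 4.33 in WT ovaries at E14.5, which is below the array median, and the interval of its log2 change ran from -0.59 to 0.53. At such signals a difference between the genotypes was not detectable. Ddc was measurable, at 80.8 and 61.3 in KO ovaries and 46.3 and 60.1 in WT ovaries (log2 change 0.39, interval -0.27 to 1.05). The interaction of KO with sex at E14.5 called 0 of 9 genes and 0% of all genes in limma, with 0 members and 295 genes at an unadjusted p under 0.05. The interaction of KO with stage called 0 of 9 in ovary and 0% of all genes (5 members and 557 genes at an unadjusted p under 0.05), and 0 of 9 in testis and 0.00811% of all genes (6 members and 563 genes).

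WT testes and WT ovaries did not differ by the test in any of the 9 genes. At E12.5, 0 of 9 passed limma, with 0.608% of all genes called, and 4 had an unadjusted p under 0.05, as had 16.7% of all genes. The 4 were Th (30.1 and 30.0 in testes, 15.8 and 13.5 in ovaries), Ddc (384 and 401 against 239 and 212), Crh (119 and 112 against 105 and 42.6) and Gata3 (58.5 and 53.9 against 79.3 and 137). Gata3 alone was lower in testes (log2 change -0.85, limma adjusted p = 0.237), and the largest of the others was Th (log2 change 0.87, limma adjusted p = 0.159). Of the WT ovary arrays at E12.5, replicate 1 had Eif2s3y at 245 and a 3′/5′ ratio of 1.09. Replicate 2 had Eif2s3y at 117 and a ratio of 1.76. The highest counts for this comparison on leaving out single arrays, given below, came from the fit without replicate 1. In that fit the array of high ratio alone stood for WT ovaries, so its counts cannot be read as a difference of sex. At E14.5, 0 of 9 passed and 1 (Ddc, log2 change 0.67, limma adjusted p = 0.31) had an unadjusted p under 0.05, while 3.83% of all genes were called and 15.9% had an unadjusted p under 0.05.

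The comparison of stages asked how these genes stood at E14.5 against E12.5 within each genotype and sex. In the chosen probe sets all 9 fell in KO ovaries. Of the 9, 8 fell in WT testes (all but Gata3) and 8 in WT ovaries (all but Hand2). In KO testes 3 fell (Chgb, Gata3 and Crh). Of all genes tested, 8.46% fell in KO ovaries, 3.86% in WT testes, 1.86% in WT ovaries and 1.27% in KO testes. On the pooled arrays, 7 of the 9 genes had every E14.5 array below every E12.5 array, against 2.3% of all genes. The exceptions were Th, because of KO testis E12.5 replicate 2 at 5.33, and Hand2. At E14.5, Th, Chga and Crh were above the array median on 0 arrays, and Phox2a and Chgb on 1. These genes therefore passed the filter on low values only because of their E12.5 arrays. Among genes this low at E14.5 the filter itself favours a fall, so the direction of their change is not independent of it.

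Chgb and Crh fell in all 4 groups. Chgb read 6.58 and 6.58 at E14.5 and 2957 and 1394 at E12.5 in KO ovaries, and fell by 7.59 on the log2 scale (SE 0.625, limma adjusted p = 1.27e-05). In WT testes it read 4.51 and 6.32 at E14.5 against 993 and 883 at E12.5 (log2 change -6.65), and in WT ovaries 8.8 and 5.85 against 877 and 818 (log2 change -6.24). In KO testes the log2 change was -4.43 (limma adjusted p = 0.0011). These are the largest changes of the 9 genes, and every E14.5 value is below the array medians, apart from 10.6 in KO testis replicate 2. Crh read 3.64 to 5.34 on the 8 arrays at E14.5 and 42.6 to 316 on the 8 arrays at E12.5. Its log2 changes were -5.02 in KO ovaries, -3.70 in KO testes, -3.92 in WT testes and -3.10 in WT ovaries.

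Th read 3.53 to 5.76 at E14.5 and 5.33 to 127 at E12.5. It fell with a log2 change of -3.55 in KO ovaries (limma adjusted p = 5.08e-06), -1.82 in WT testes and -1.20 in WT ovaries, and had -0.32 in KO testes, where it was low at both stages (limma adjusted p = 0.614). Dbh and Phox2a read at most 12.1 and 10.1 at E14.5. With each probe set tested, the third Dbh set fell in KO and WT ovaries. It did not pass in WT testes (log2 change -0.69, limma adjusted p = 0.215). Phox2a fell with a log2 change of -4.33 in KO ovaries, -3.41 in WT testes and -3.03 in WT ovaries, and had -1.45 in KO testes, where the test was not passed (limma adjusted p = 0.194). Chga read at most 8.41 at E14.5 and at least 10.3 at E12.5.

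Ddc, Hand2 and Gata3 were still above the array medians at E14.5. Ddc read 46.3 to 108 at E14.5 and 111 to 420 at E12.5, and fell with log2 changes of -2.01 to -2.31 in the 3 groups other than KO testes. Gata3 read 16.5 to 30.2 at E14.5 and 41.3 to 191 at E12.5. It fell in KO testes by 1.26 on the log2 scale (limma adjusted p = 0.0498), a call that 12 of 18 other settings lost, and in WT testes the log2 change of -0.95 was not past the threshold (limma adjusted p = 0.0807). Hand2 read 682 and 421 at E14.5 against 623 and 851 at E12.5 in WT ovaries, which overlap (log2 change -0.44, interval -1.28 to 0.40). In KO ovaries Hand2 fell with a log2 change of -2.18, at 235 and 226 against 1763 and 631. The second kept Hand2 probe set had -0.40 in KO ovaries (limma adjusted p = 0.176) and -0.65 in WT testes (limma adjusted p = 0.0638). In WT testes the chosen set lost its call in 5 of 18 other settings. Without WT ovary E14.5 replicate 1, 3 of the 9 genes kept their call in WT ovaries, where 0.624% of all genes were called lower.

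**Figure D4:**
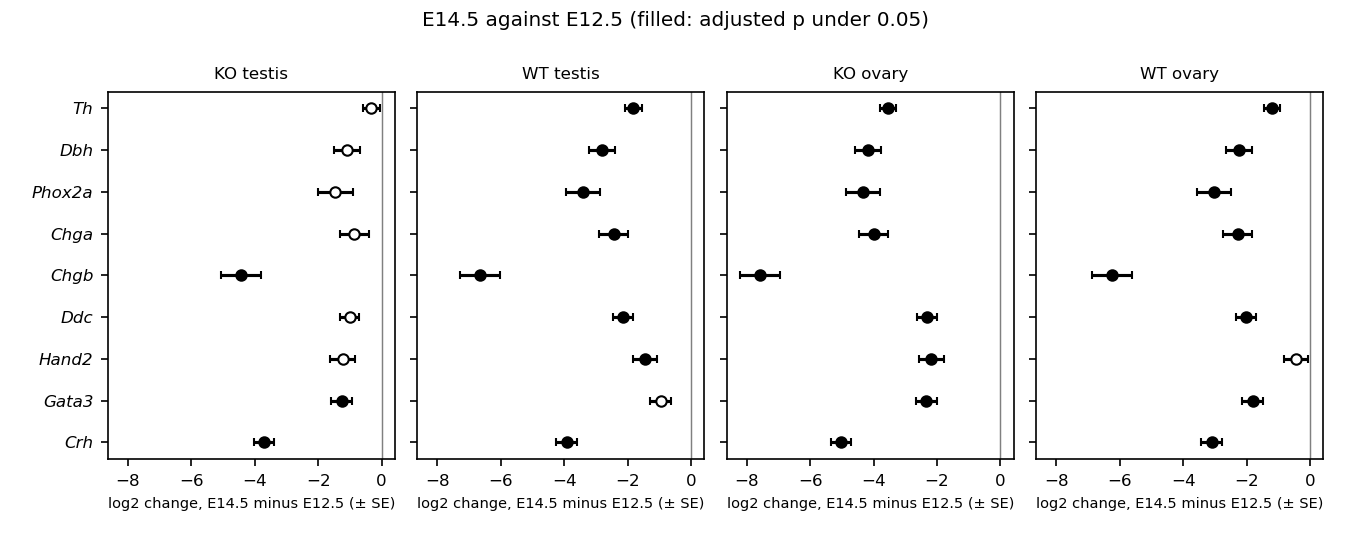
Log2 change (E14.5 minus E12.5, with its SE from limma) of the 9 genes in KO testis, WT testis, KO ovary and WT ovary; filled points have an adjusted p under 0.05. Every point is below 0, and Chgb has the lowest in each group (-7.59 in KO ovary, -4.43 in KO testis).

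The 9 genes varied together over the 8 arrays at E12.5, with Crh the least tied to the others. As a description over these 8 arrays, which share groups of 2, the median correlation of a gene with the other 8 was 0.90 for Phox2a and Chga, 0.84 for Th, Dbh and Chgb, 0.83 for Ddc, 0.82 for Hand2, 0.68 for Gata3 and 0.45 for Crh. The order of the groups differed by gene. For Th the means were 94.4 ± 45.7 in KO ovaries, 7.39 ± 2.92 in KO testes, 30.1 ± 0.0534 in WT testes and 14.7 ± 1.6 in WT ovaries (SD, n = 2), and the arrays of these 4 groups did not overlap. For Crh the means were 291 ± 36.2, 106 ± 29.8, 115 ± 4.78 and 73.9 ± 44.3 in the same groups, and only KO ovaries stood clear of the rest.

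The genes with the closest pattern over all 16 arrays were found by correlation of log2 values, as a description in which the stages form 2 clusters. For Phox2a these were A930009L07Rik (r = 0.99), Rgs4, a regulator of G protein signalling (0.985), and Nsg2, a neuronal vesicle protein (0.984), and the first 2 also led for Dbh (0.98 and 0.975) and for Ddc (0.954 and 0.953). For Th they were Disp2 (0.977), the cadherin gene Celsr3 (0.975) and the sodium channel subunit gene Scn3b (0.973), which was also next after these for Dbh (0.974). For Chga they were Rtn1 (0.984), Nsg2 (0.984) and Cyb561, the cytochrome of chromaffin granules (0.978). For Chgb they were Insm1, a transcription factor of neuroendocrine cells (0.984), and the neurofilament genes Nefl (0.981) and Nefm (0.97), and for Ddc the third was Isl1, a transcription factor of sympathetic neurons (0.953).

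Gata3 was closest to the neural adhesion gene L1cam (0.966), Dgkk (0.961) and the neurotrophic receptor gene Gfra3 (0.959). Crh was closest to the chemokine gene Cxcl13 (0.975), Dact1 (0.964) and the neuropeptide gene Cck (0.959), and Hand2 to Tspyl4 (0.917), Mmd (0.916) and Bphl (0.909). Over the 8 arrays at E12.5 alone, r was 0.995 for Celsr3 with Th and 0.978 for Nsg2 with Chga, but 0.713 for Dact1 with Crh. Hand2 was the member whose 3 closest genes also had r of 0.825 to 0.888 over the 8 arrays at E14.5, where the lowest member signals are below the array medians.

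Other genes of the same cells were read from lists of 110 genes in 13 lists, 84 of them tested. Over all genes tested, 8.02% had an unadjusted p under 0.05 in KO against WT ovaries at E12.5 and 11.1% in testes. Of 7 tested sympathoadrenal transcription factors, 0 passed limma in KO against WT ovaries at E12.5 (2 at an unadjusted p under 0.05, median log2 change 0.11) and 0 in testes (3, median -0.45). Isl1 read 272.5 and 226 in KO ovaries against 167 and 77.4 in WT ovaries, and 92.7 and 57 in KO testes against 303 and 320.2 in WT testes (limma adjusted p = 0.437 and 0.0742). Of 9 genes of catecholamine synthesis, storage and transport, 0 passed limma in ovaries or testes (3 at an unadjusted p under 0.05 in each), with medians of 0.21 and -0.18. Among these 9, 8 had positive log2 changes in ovaries and 7 had negative ones in testes. Gch1, which makes the cofactor of Th, read 90.5 and 21 in KO ovaries against 24.2 and 11.4 in WT ovaries, and 12.9 and 9.58 in KO testes against 32 and 27.1 in WT testes. Pnmt, which makes adrenaline and marks adrenergic chromaffin cells, read 16.2 to 29.3 at E12.5, with 26.2 and 20.6 in KO ovaries and 16.2 and 23.7 in WT ovaries, and 25.2 and 29.3 in KO testes and 21.3 and 20.2 in WT testes. Slc6a2, the noradrenaline transporter gene, read at most 11.8 on these arrays, close to the array medians. Pnmt and Slc6a2 were picked after their values were seen, as defining markers, and do not stand for the other genes of their list.

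Of 10 pan-neuronal genes, 1 (Stmn3) rose in KO ovaries at E12.5 and all 10 had positive log2 changes (median 0.76), and 0 passed limma in testes (8 at an unadjusted p under 0.05), where 8 were negative (median -1.42). Stmn3 read 349 and 92.7 in KO ovaries and 32 and 27.4 in WT ovaries (log2 change 2.46, limma adjusted p = 0.0435), and 36.5 and 17.1 in KO testes against 90.5 and 96.7 in WT testes. Summed over the 10 genes, intensity was 2309 to 2867 in KO ovaries and 1081 to 1684 in WT ovaries, and 487 to 1396 in KO testes and 2098 to 2213 in WT testes. Summed over the 9 members it was 3204 to 6963 in KO ovaries and 2194 to 2212 in WT ovaries, and 782 to 1563 in KO testes and 2652 to 2657 in WT testes. At E14.5 the pan-neuronal sum was 205 to 333 over all groups. The share of the neuronal signal in the members' changes was not tested. Of 5 granule genes 0 passed limma (medians 0.39 in ovary and -0.68 in testis), with 2 in each sex at an unadjusted p under 0.05. Of 10 genes of receptors and neuropeptides 0 passed (medians 0.53 and -0.09), with 4 in ovary and 2 in testis at that p. Of 3 glial genes (0.62 and -0.14) 0 passed limma and 0 had an unadjusted p below 0.05. The same held for 2 genes of the corticotropin-releasing hormone system, Crhr1 and Pomc (0.06 and 0.27). The rest of the 7 listed genes of that system did not pass the filter on low values, so they were not tested as partners of Crh.

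Genes of tissues near the gonad were read alongside. Of 10 striated muscle genes, 2 rose in KO ovaries at E12.5, Tnnc1 (61.5 and 183 against 13.4 and 17.2, limma adjusted p = 0.0331) and Myh3 (78.2 and 207 against 15.4 and 15.9, limma adjusted p = 0.0414), with a median of 1.47. The summed intensity of the 10 muscle genes was 715 in KO ovary replicate 1 and 1580 in replicate 2. Of 4 adrenal cortex genes 0 passed limma (median 1.15 in ovary and -0.04 in testis), with 4 in ovary and 0 in testis at an unadjusted p under 0.05. Their summed intensity was 355 and 157 in KO ovaries and 100.3 and 72.2 in WT ovaries, and Cyp11b1, which encodes the last enzyme of corticosterone synthesis, was at 113 and 36.2 against 13.5 and 16. Of 6 fetal Leydig and shared steroidogenic genes 0 passed limma (medians 1.40 and 1.20, 3 in ovary and 0 in testis at an unadjusted p under 0.05). Of 5 mesonephros genes 0 passed (-0.61 and 0.01, 3 in ovary and 1 in testis). Among 9 gonad identity genes Fst, the activin antagonist gene, fell in KO ovaries (81.3 and 55.5 against 760 and 688, limma adjusted p = 0.0274). The part of adrenal, muscle or nerve tissue taken along with a gonad in the results above was not tested.

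**Figure D5:**
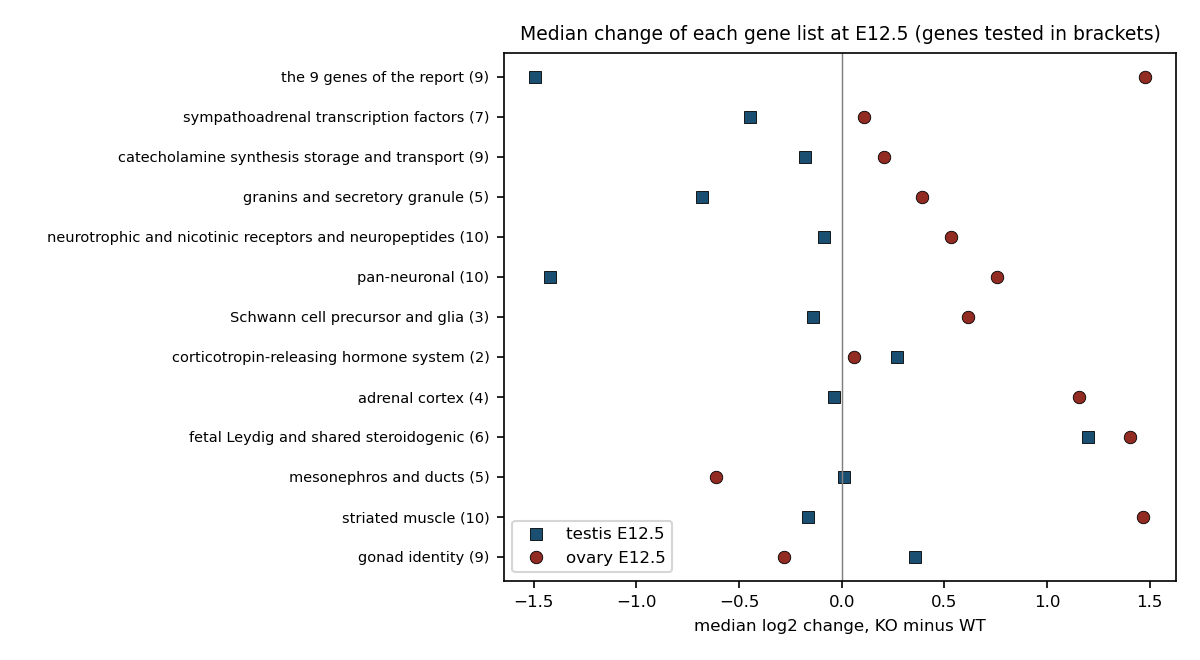
Median log2 change (KO minus WT) at E12.5 of the 9 genes and of 12 other gene lists, with the number of genes tested in brackets; squares are testis and circles ovary. The 9 genes have medians of -1.5 in testis and 1.48 in ovary, and the pan-neuronal list -1.42 and 0.76.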

How the data were processed

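Total RNA of 16 gonad samples was labelled and hybridised to Affymetrix Mouse430_2 arrays, per the labels' protocols. The deposited values are linear probe-set intensities, and per the submitters' processing notes they came from MAS5, with scaling and version not given in the sources used here. Intensities were turned into log2(intensity + 4), 4 being the rounded median of the arrays' 20th percentiles, which understates changes of low genes. Probe sets above their array's median in at least 2 arrays were kept (25620 of 45101, with 64 controls left out). Symbols came from the 2016 platform annotation. It gave 1 symbol for 34945 probe sets, several for 932, which were left unnamed, and none for 9160. Each gene was represented by its kept probe set of highest mean, giving 12336 genes. All 16 arrays were fitted with 8 group means in limma 3.58.1 (R 4.3.3), two-sided, with the variance prior following intensity (residual degrees of freedom 8, prior 5.29), Benjamini-Hochberg adjustment over all genes and a threshold of 0.05. The 14 contrasts included 4 interactions. The number of arrays limits the precision. The code was tested on simulated data, and figures were drawn in Python 3.11.15. The members and the other gene lists were chosen with earlier results of these data known. Genes named are the members, the called genes of each list with up to 3 of smallest p, and the 3 genes closest to each member. Pnmt and Slc6a2 were named besides, after their values were seen. Promoter sequences are from RefSeq (GRCm38.p6). Alternatives covered the pseudocount, filter, normalization, variance model, probe sets, 3′/5′ ratio, replicate block and each array left out.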

Additional observations from a re-analysis of the deposited data

Results flagged for a closer look

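Th and Dbh are singled out because the KO minus WT change at E12.5 differed between testis and ovary by the test of the difference itself (limma interaction, testis minus ovary). The interaction of Th was -3.92 on the log2 scale (adjusted p = 0.000814), and that of Dbh -3.78 (adjusted p = 0.0271). The call of Th was lost in 1 of 21 other settings and that of Dbh in 9 of 22. For Th both KO testis arrays were below and both KO ovary arrays above the WT arrays of their sex, and the same held for the chosen Dbh probe set. It also held for Phox2a, Chga, Chgb and Ddc, so it does not set Th and Dbh apart. The other Dbh probe sets had interactions of -3.36 and -0.35, and neither passed the test.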

How the results depend on the processing

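Counts are of the 9 genes called at an adjusted p under 0.05. KO against WT in ovary E12.5 gave 2, but 1 with the filter at 8 arrays (which leaves Th untested), with each probe set or with the WT testis E12.5 arrays averaged, 0 with only its 4 arrays, and 1 to 5 on leaving out single arrays. KO against WT in testis E12.5 gave 0, but 1 with pseudocount 1, no filter, the 3′/5′ ratio as covariate or an adjusted p of 0.1, 6 without the arrays of high 3′/5′ ratio, and 0 to 2 on leaving out single arrays. The KO by sex interaction at E12.5 gave 2, but 1 with the filter at 8 arrays, no intensity trend, the mean of probe sets, each probe set or the averaged WT testis arrays, 4 with the 3′/5′ covariate, 0 with only its arrays, 5 without the arrays of high 3′/5′ ratio, and 1 to 5 on leaving out single arrays. WT testis against ovary at E12.5 gave 0, and 0 to 2 on leaving out single arrays. E14.5 against E12.5 in WT ovary gave 8, but 5 with pseudocount 32 and 3 to 8 on leaving out single arrays. The KO by stage interaction gave 0 in ovary and 0 to 3 on leaving out single arrays, and 0 in testis, 0 to 1 on leaving out single arrays and 4 without the arrays of high 3′/5′ ratio. The cause was not tested, beyond the fewer arrays or genes in these fits. No called change of a member reversed its sign under any setting run.

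Over all genes, KO against WT in ovary E12.5 called 36, with 0 to 203 over the settings, and ovary E14.5 called 67, with 5 to 119. Testis E12.5 called 5 (0 to 176) and testis E14.5 called 1 (0 to 10). WT testis against ovary called 75 (10 to 1565) and 473 (0 to 913) at E12.5 and E14.5. E14.5 against E12.5 called 1701 (415 to 2914) in KO ovary, 498 (176 to 768) in KO testis, 538 (116 to 1258) in WT ovary and 1306 (260 to 3365) in WT testis. The KO by sex interaction at E12.5 called 14 (0 to 73).

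The replicate number as a block gave 1 call (Th) in KO against WT testis at E12.5 and changed no other of the 14 counts by over 1.5 times. Same-numbered arrays of different groups had correlations of -0.66 to 0.58 over 28 pairs of groups, of which 7 were over 0.1. The value of -0.66 was that of KO and WT ovaries at E12.5. In these groups the higher 3′/5′ ratio was in KO replicate 1 (2.27) and WT replicate 2 (1.76). A block by replicate number cannot take up a difference that runs across the numbers in this way. Its cause was not tested. No label says that a number marks a shared litter, so the numbers were not taken as pairs.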
